A study of Arabidopsis thaliana with 6 samples.

Results

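The dark-inducible and dormancy genes are 8 loci of Arabidopsis thaliana whose transcripts are used as markers of darkness, carbon shortage and growth arrest. They were taken by name, as DIN2, DIN6, DIN9, DIN10, DIN11, SEN1, DRM1 and DRM2, out of 32833 loci with an entry in the deposited count files, and the counts of their isoforms were summed per locus. RNA was measured by sequencing in whole seedlings of the Columbia genotype, with 3 libraries per group. The air group germinated for 3 d in darkness without ethylene, and the ethylene group spent the same 3 d in darkness with 0.7 ppm ethylene, a gaseous plant hormone. Both groups then grew for 5 d in light with no ethylene before RNA was extracted, so each value below was read in light, after the gas had been removed. The labels do not say whether the 3 libraries of a group are separate cultures, and the p-values below therefore rest on a spread between libraries that may be technical.

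In leaves kept in the dark, or starved of sugar, the protein kinase SnRK1 and the S1 group of bZIP transcription factors switch on genes for amino acid breakdown, nitrogen storage and cell wall or storage sugar turnover, and sugars keep the same genes low. The DIN genes are known from transcripts that accumulate when leaves are darkened. SEN1 is also a marker of ageing leaves, and DRM1 and DRM2 belong to a small plant family whose transcripts are high in resting axillary buds and fall when buds start to grow.

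The annotation of RefSeq assembly TAIR10.1 places the 8 genes on all 5 nuclear chromosomes. DIN2 (AT3G60140) lies at chr3:22216540-22220824 on the plus strand, DIN6 (AT3G47340) at chr3:17437840-17441431 on the minus strand and DIN11 (AT3G49620) at chr3:18393747-18397050 on the plus strand. DIN9 (AT1G67070) lies at chr1:25041833-25044659 on the plus strand and DRM1 (AT1G28330) at chr1:9933786-9935440 on the minus strand. DRM2 (AT2G33830) lies at chr2:14308754-14310608 on the minus strand, SEN1 (AT4G35770) at chr4:16944878-16946266 and DIN10 (AT5G20250) at chr5:6833564-6836862, the last pair both on the plus strand. The build behind the counts is not given in the sources used here, and the positions are those of the RefSeq loci with the same names.

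Ethylene-pretreated seedlings had less transcript of 5 of these genes, DIN2, DIN6, DIN9, DIN10 and DRM2, each by an estimate of more than 4-fold with TMM factors. Scaled on synthetic spike-in RNAs, DIN9 and DIN10 fell by less than 4-fold, with log2 fold changes of -1.72 and -1.89. No gene of the 8 rose, and none was higher even at an unadjusted p under 0.05. DIN11 did not pass the test, and SEN1 and DRM1 had too few counts to enter it. DIN2, DIN6 and DIN9 had fewer than 10 counts, the minimum of the filter on low counts, in every ethylene library. These 3 genes were therefore tested only through their air libraries. By edgeR's quasi-likelihood test with Benjamini-Hochberg adjustment over 17887 loci, 32.6% of all loci tested were called in either direction, 16.8% lower and 15.8% higher. Of the loci tested, 4.61% were called lower by at least 2-fold and 0.984% by at least 4-fold. In 7 of the 8 genes every ethylene library lay below every air library, and DIN11 was the exception. Among the 6 genes tested the pattern held for 5, beside 23.8% of all loci tested. In bulk samples, fewer cells of a type and less RNA per cell cannot be told apart.

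**Figure D1:**
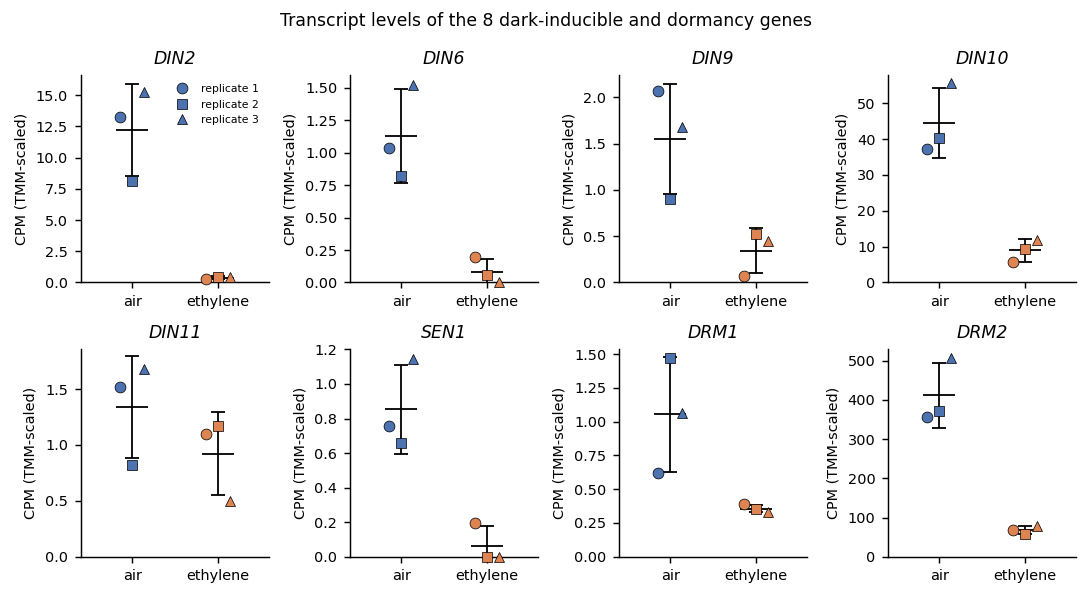
Transcript level of each gene in CPM (the depth-scaled unit of edgeR, with TMM factors, each panel with its own linear axis from 0) in 3 air and 3 ethylene libraries. Marker shapes give the replicate number, horizontal bars the group mean and whiskers the SD. The ethylene libraries lie below the air libraries in all panels except DIN11.

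The 250 bases before the annotated start of each gene are shown for 5 of the 8 genes. These are the 4 with a TTATCC match, namely DIN6, SEN1, DRM2 and DIN11, and DIN2, which has none. The windows were thus picked by a motif that is marked in them. Among them, DRM2 is the gene with the most counts and DIN11 the gene whose groups overlapped. Each is printed 5′ to 3′ in the direction of transcription and ends at the base before the gene, from RefSeq TAIR10.1. Capitals mark CACGTG (the G-box, bound by bZIP and bHLH proteins), TTATCC (a sugar-repressive element) and TATCCA (a box known from sugar-repressed amylase genes of rice), on either strand, so that GGATAA is TTATCC read on the other strand. In DRM2 the TTATCC and TATCCA matches overlap and appear as one capital run. The SEN1 sequence is 200 bases long, without the 50 bases that lie inside the neighbouring gene, and 136 bases of the DIN6 sequence lie in AT3G47341, a locus on the opposite strand. The windows are chr3:22216290-22216539 for DIN2, chr3:17441432-17441681 for DIN6, chr4:16944678-16944877 for SEN1, chr2:14310609-14310858 for DRM2 and chr3:18393497-18393746 for DIN11.
DIN2: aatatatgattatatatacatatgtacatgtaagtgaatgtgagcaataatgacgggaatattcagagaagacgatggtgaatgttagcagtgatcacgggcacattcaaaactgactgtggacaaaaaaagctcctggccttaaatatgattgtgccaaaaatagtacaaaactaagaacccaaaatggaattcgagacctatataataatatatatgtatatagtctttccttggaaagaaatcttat
DIN6: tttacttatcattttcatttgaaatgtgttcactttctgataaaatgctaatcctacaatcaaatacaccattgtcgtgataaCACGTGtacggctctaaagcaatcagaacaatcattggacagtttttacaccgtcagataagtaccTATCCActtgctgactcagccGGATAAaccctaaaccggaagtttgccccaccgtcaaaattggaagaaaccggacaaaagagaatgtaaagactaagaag
SEN1: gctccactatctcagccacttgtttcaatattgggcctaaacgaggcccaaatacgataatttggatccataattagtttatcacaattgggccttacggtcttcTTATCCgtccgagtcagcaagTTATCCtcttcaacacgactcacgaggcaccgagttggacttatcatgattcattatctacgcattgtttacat
DRM2: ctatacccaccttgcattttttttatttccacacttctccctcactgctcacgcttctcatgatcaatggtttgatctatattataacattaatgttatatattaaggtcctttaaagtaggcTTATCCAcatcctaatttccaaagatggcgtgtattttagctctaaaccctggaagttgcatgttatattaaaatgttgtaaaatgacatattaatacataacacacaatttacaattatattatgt
DIN11: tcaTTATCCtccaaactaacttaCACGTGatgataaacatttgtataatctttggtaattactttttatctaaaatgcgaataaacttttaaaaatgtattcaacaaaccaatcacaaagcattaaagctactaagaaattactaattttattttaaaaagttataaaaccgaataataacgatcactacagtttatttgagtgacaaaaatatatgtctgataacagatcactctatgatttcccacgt

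TTATCC stood in 4 of the 8 windows of 250 bases, those of DIN6, SEN1, DRM2 and DIN11, against 12.5% of the windows of 27437 protein-coding genes. The match in DIN6 began 80 bases before the gene on the opposite strand, that in DRM2 127 bases before it, and SEN1 had a pair of matches beginning 95 and 74 bases before the gene. CACGTG stood in DIN6 and DIN11, 2 of 8 windows against 6.49% of all, and TATCCA in DIN6 and DRM2, against 13.6%. ACTCAT, a motif bound by S1 bZIP proteins in the promoter of a proline dehydrogenase gene, stood in DIN9 and DRM1, against 12.3%, and AATATCT, the core of the evening element of the circadian clock, stood in 0 of 8 windows against 10.0%. Of the 250 bases of the DRM1 window, 244 lie inside another locus, AT1G09025, and the ACTCAT match is among them. The TTATCC and TATCCA matches of DIN6 lie inside AT3G47341, the locus on the opposite strand, and the CACGTG match of DIN6 lies outside it. DIN2, the gene with the largest fall, and DIN10 held none of the 5 motifs in these windows, while DIN11, which did not pass the test, held both TTATCC and CACGTG. A match describes these letters and is not a binding site.

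Enzymes of sugars and glycosides are described first. DIN2 encodes a beta-glucosidase, an enzyme that cuts glucose from glycosides, and is also named BGLU30. Its level was 13.2, 8.11 and 15.2 CPM in air replicates 1, 2 and 3, and 0.258, 0.469 and 0.443 CPM in ethylene replicates 1, 2 and 3. The lowest air library thus stood far above the highest ethylene library. The fall was 30.4-fold (95% confidence interval 17.9 to 51.6; log2 fold change -4.93 ± 0.34 SE, edgeR with Benjamini-Hochberg adjusted p = 1.52e-05), and it rested on 491 counts in the air libraries and 20 in the ethylene libraries.

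DIN10 is annotated as a member of the raffinose synthase family, whose enzymes build or turn over galactose-containing sugars. Its libraries held 541, 492 and 728 counts in air and 87, 157 and 216 after ethylene, or 37.3, 40.3 and 55.5 CPM against 5.61, 9.20 and 12.0 CPM. Air replicate 3 was the highest of the air libraries, ethylene replicate 1 the lowest of all, and the groups did not overlap. DIN10 fell 4.94-fold (interval 3.38 to 7.22; log2 fold change -2.30 ± 0.25 SE, edgeR adjusted p = 0.000121 with Benjamini-Hochberg adjustment). The DIN10 gene overlaps the gene AT5G20260 on the opposite strand by 82 bases, and the use of strand in the counting is not given in the sources used here. AT5G20260 had 9 counts in all 6 libraries together.

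DIN9 encodes a phosphomannose isomerase, which interconverts mannose 6-phosphate and fructose 6-phosphate. It had few counts, 30, 11 and 22 in air and 1, 9 and 8 after ethylene, or 2.07, 0.901 and 1.68 CPM against 0.0645, 0.527 and 0.443 CPM. Air replicate 2 stood only a little above ethylene replicates 2 and 3, while ethylene replicate 1 had a single read. DIN9 fell 4.36-fold (interval 1.77 to 10.7; log2 fold change -2.12 ± 0.58 SE, edgeR adjusted p = 0.0191 with Benjamini-Hochberg adjustment). Without air replicate 1 the log2 fold change was -1.88 and the call was lost (edgeR adjusted p = 0.0820 with Benjamini-Hochberg adjustment).

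DIN6 encodes the glutamine-dependent asparagine synthetase ASN1, which makes the nitrogen-rich amide that darkened leaves export. Its 45 air counts fell to 4 over the ethylene libraries, with 15, 10 and 20 counts in air and 3, 1 and 0 after ethylene. On the CPM scale these were 1.03, 0.819 and 1.52 in air and 0.194, 0.0586 and 0 after ethylene, so that the ethylene libraries held 3 reads at most. DIN6 had a log2 fold change of -3.69 ± 0.72 SE, or 12.9-fold with an interval from 4.23 to 39.5 (edgeR adjusted p = 0.00359 with Benjamini-Hochberg adjustment). Without ethylene replicate 1, which held 3 of the 4 reads, the log2 fold change was -4.95. AT3G47341, a locus that overlaps the DIN6 gene by 11 bases on the opposite strand, had no counts.

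DIN11 encodes an enzyme of the 2-oxoglutarate and iron-dependent oxygenase superfamily and was the only tested gene of the set without a call. Its libraries held 22, 10 and 22 counts in air and 17, 20 and 9 after ethylene, or 1.52, 0.819 and 1.68 CPM against 1.10, 1.17 and 0.499 CPM. Air replicate 2 lay below ethylene replicates 1 and 2, so the groups overlapped. The log2 fold change was -0.55 ± 0.45 SE with a 95% confidence interval from -1.55 to 0.45 (edgeR adjusted p = 0.389 with Benjamini-Hochberg adjustment). That interval holds a fall of up to 2.92-fold and a rise, and it lies above the interval of the DIN2 change, which ends at -4.16, although the difference between the genes was not tested. AT3G49630, the locus with the next number, is annotated in the same superfamily, and whether the authors' counting shares reads between such copies is not known.

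SEN1 is annotated in the rhodanese superfamily, whose members include sulfurtransferases, and is also named DIN1. It had 11, 8 and 15 counts in air and 3, 0 and 0 after ethylene, or 0.759, 0.655 and 1.14 CPM against 0.194, 0 and 0 CPM. Every air library lay above every ethylene library, but the gene did not reach the minimum count of the filter. The ratio of the pooled counts, scaled by library totals, was 12.9 in favour of air, with an exact 95% interval from 4.05 to 65.5 that covers counting error only. With no filter SEN1 was called lower (log2 fold change -3.65 ± 0.96 SE, edgeR adjusted p = 0.00823 with Benjamini-Hochberg adjustment, beside 11.7% of loci called lower in that fit). DESeq2 gave -3.82 for SEN1 (adjusted p = 0.00612), where 14.6% of loci were called lower.

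DRM1 and DRM2 encode small proteins of the dormancy and auxin associated family. DRM2 had by far the most counts of the 8 genes, 5179, 4533 and 6657 in air and 1054, 986 and 1393 after ethylene, or 357, 371 and 508 CPM against 68.0, 57.7 and 77.2 CPM. The lowest air library was well over the highest ethylene library, and the ethylene libraries lay close to each other. DRM2 fell 6.09-fold, with an interval of 4.81 to 7.71, the narrowest of the tested genes on the log scale (log2 fold change -2.61 ± 0.15 SE, edgeR adjusted p = 1.00e-05 with Benjamini-Hochberg adjustment). DRM1 had only 9, 18 and 14 counts in air and 6 in each ethylene library, or 0.621, 1.47 and 1.07 CPM against 0.387, 0.351 and 0.333 CPM. The DRM1 groups did not overlap, but its air libraries were spread over a wider range than the gap between the groups. The pooled ratio for DRM1 was 2.59 in favour of air (exact 95% interval 1.45 to 4.78, counting error only), and the gene was not called with no filter (log2 fold change -1.53 ± 0.58 SE, edgeR adjusted p = 0.0660 with Benjamini-Hochberg adjustment) or by DESeq2 (-1.57, adjusted p = 0.0854). It was called lower without air replicate 1 (-1.83, edgeR adjusted p = 0.0317 with Benjamini-Hochberg adjustment).

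**Figure D2:**
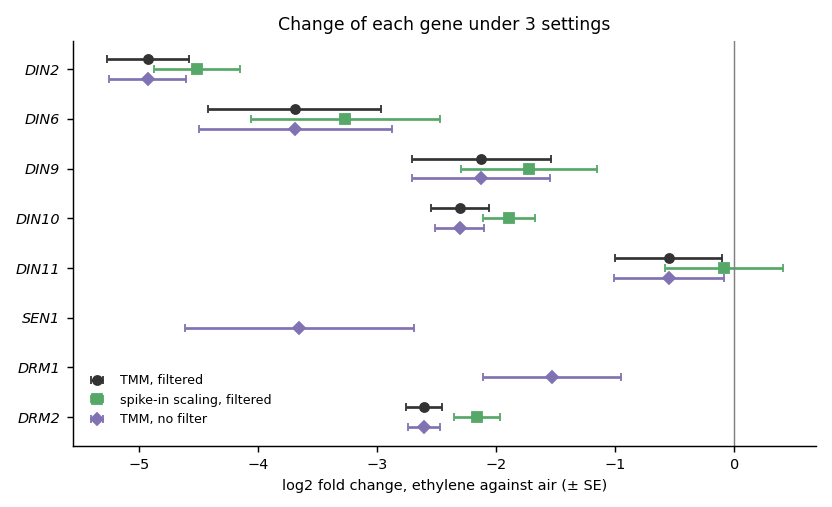
Log2 fold change of ethylene against air for each gene, with its SE as whiskers, from edgeR with TMM factors after the filter on low counts (black circles), with scaling on the spike-in RNAs (green squares) and with no filter (purple diamonds). SEN1 and DRM1 have a value only in the fit with no filter, and DIN11 lies nearest to 0 under each setting.

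The spike-ins, synthetic RNAs with 92 entries in the files, gave a second scale. Over all loci the median log2 fold change was 0.02 on the TMM scale and 0.47 on the spike-in scale, a shift of 0.45, which left 829 loci lower and 7160 higher. The same 5 genes were called lower on this scale, against 4.63% of all loci. Their log2 fold changes became -4.51 for DIN2, -3.27 for DIN6, -1.72 for DIN9, -1.89 for DIN10 and -2.16 for DRM2, and that of DIN11 became -0.09. Which scale reflects RNA per seedling is not known, because the amount of spike-in added is not given in the sources used here.

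Within the air group the same libraries were often high or low. Air replicate 3 was the highest air library for 6 of the 8 genes, and air replicate 2 the lowest for 5. Averaged over the 6 tested genes, log2 CPM less each gene's own mean was 1.27, 0.82 and 1.54 in air replicates 1, 2 and 3 and -1.39, -1.03 and -1.20 in the ethylene libraries. Over all genes, air replicate 3 also stood farthest from 0 on the first principal component, and air replicate 2 nearest to 0. That component held 64.7% of the variance and separated the groups. The share of all loci highest in air replicate 3, or lowest in air replicate 2, of the air libraries was not counted. Without air replicate 3 the same 5 genes were called lower, with a count of 4607 called loci in all.

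**Figure D3:**
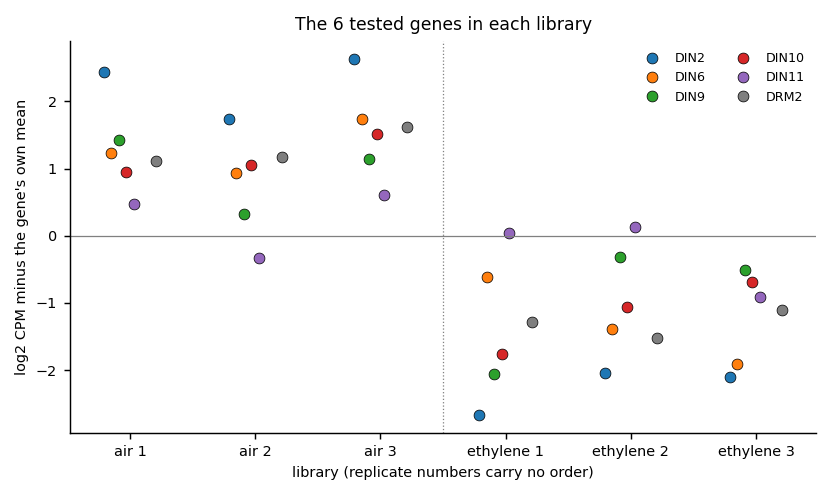
Log2 CPM of the 6 tested genes in each library, less the mean of that gene over the 6 libraries, with points shifted sideways to keep them apart. The air libraries average 1.27, 0.82 and 1.54 and the ethylene libraries -1.39, -1.03 and -1.20, and DIN11 has points on both sides of 0 within each group.

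The isoforms of these genes were counted unevenly. RefSeq and the files list 28 transcripts for the 8 genes, and 15 of them had any count. Transcripts with exonic bases found in no other isoform of their gene took most of the counts, such as isoform 2 of DRM2 with 529 bases of its own and 19801 counts and isoform 2 of DIN2 with 274 bases and 511 counts. Isoform 1 of DIN2 had 0 bases of its own and 0 counts, and isoforms 2 and 4 of DIN10 were likewise at 0. Exceptions were isoform 6 of DRM1 (59 counts) and isoform 4 of SEN1 (36 counts), which held nearly all counts of their genes with no base of their own. In the other direction, isoform 5 of DRM1 with 70 bases of its own and isoform 1 of SEN1 with 39 had 0 counts. Isoform 1 of DRM2 had 186 bases of its own and 1 count. Over 5787 loci with several isoforms and at least 100 counts, 4.67% of 10860 isoforms with bases of their own had no count. The share was 95.2% of 3338 isoforms with a junction but no base of their own, and 85.0% of 1755 isoforms with neither. Reads shared between isoforms may therefore be missing from the counts, which was not tested, and no order of levels among the 8 genes is given. DRM1, SEN1, DIN6 and DIN9, with 3 to 6 isoforms each, had few counts, but DIN10 also has 4 isoforms and held 541, 492 and 728 counts in air, and DIN11, with 1 isoform of 1538 exonic bases, had 100 counts in all.

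**Figure D4:**
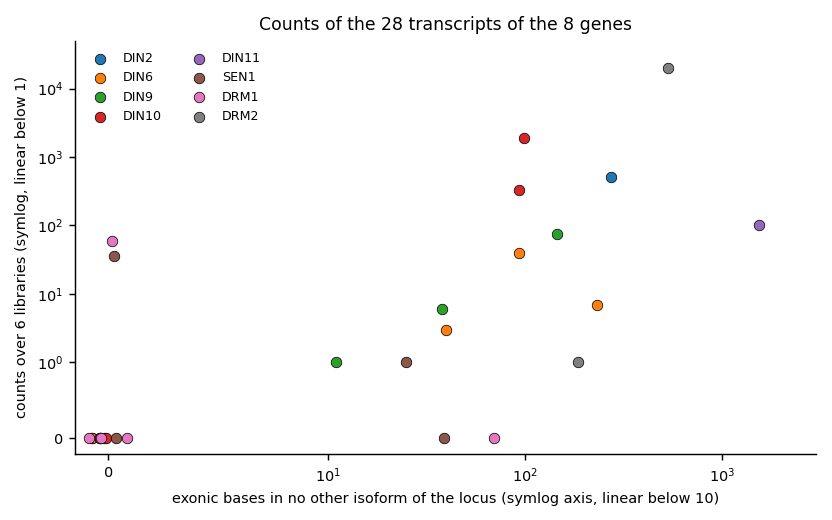
Counts over the 6 libraries of each of the 28 transcripts (vertical axis, logarithmic above 1) against the exonic bases that no other isoform of the same gene holds (horizontal axis, logarithmic above 10), coloured by gene. Points at 0 bases are shifted sideways to keep them apart, and most of them lie at 0 counts.

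DIN10 was the only gene with more than 1 isoform tested. Its isoforms 1 and 3 had log2 fold changes of -2.34 ± 0.25 and -2.05 ± 0.37 (SE, edgeR on 19123 transcripts, Benjamini-Hochberg adjusted p = 0.000117 and 0.00220), against 30.5% of transcripts called in either direction. Isoform 2 of DIN9 had a log2 fold change of -2.39 ± 0.61 and was called (edgeR adjusted p = 0.0136 with Benjamini-Hochberg adjustment). The authors' deposited table holds 6 transcripts of 5 of the genes, and gives log2 fold changes of -4.954 for isoform 2 of DIN2, -2.605 for isoform 2 of DRM2, -2.436 for isoform 2 of DIN9, -2.352 and -2.066 for isoforms 1 and 3 of DIN10 and -0.5464 for DIN11. Of the 18562 transcripts with an adjusted p in the authors' deposited table, 15.7% were lower at an adjusted p of at most 0.05, and of these 6 only DIN11 was not, with an adjusted p of 0.5171.

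Other genes known to respond to low energy were compared from a list of 28. From here on, rose and fell mean called by edgeR after Benjamini-Hochberg adjustment, and each change is given in log2 units with its SE. Of the 26 tested, 23 fell and 0 rose, beside 16.8% and 15.8% of all loci tested, and 3 were not called. The median log2 fold change of the 26 was -1.59, beside -2.46 for the 6 tested dark-inducible and dormancy genes and 0.02 for all loci. The smallest p-values were those of TPS11, a class II trehalose phosphate synthase gene, from 233 ± 41.3 to 45.3 ± 3.44 CPM (SD, n = 3), and bZIP1, an S1 bZIP factor known to activate DIN6, from 70.1 ± 12.5 to 15.7 ± 0.208 CPM. Their log2 fold changes were -2.36 ± 0.13 and -2.16 ± 0.13 (SE). ATL8, a RING finger gene, had a log2 fold change of -3.73 ± 0.27, STP1, a hexose carrier gene, of -1.41 ± 0.11, TPS9 of -1.33 ± 0.09 and EXL4 of -1.16 ± 0.09. MIOX2, a myo-inositol oxygenase gene with the highest mean CPM of the list, fell by 2.38 ± 0.19 log2 units, from 858 ± 90.7 to 165 ± 47.8 CPM. GDH1, EXL2 and D2HGDH had log2 fold changes of -0.02, 0.00 and -0.93 and were not called by edgeR after Benjamini-Hochberg adjustment, and ProDH1 and MIOX4 had too few counts to be tested. On the spike-in scale 19 of the 26 were called lower, and GDH1 and EXL2, 2 of the list, were called higher. Over all loci, 4.63% were lower and 40.0% higher on that scale.

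Close relatives of the 8 genes in the same protein families moved in both directions. Of 21 relatives, 13 were tested, of which 6 fell and 5 rose with a median log2 fold change of 0.27, but on the spike-in scale 0 were called lower and 7 higher. Over all loci tested, 16.8% were lower and 15.8% higher on the TMM scale, and 4.63% and 40.0% on the spike-in scale. BGLU33, a beta-glucosidase gene like DIN2, rose by 1.02 ± 0.20 log2 units, while BGLU28, of the same family, fell by 1.09 ± 0.35 log2 units. The raffinose synthase gene RS5, of the family of DIN10, rose by 0.34 ± 0.08 log2 units, while RS2 fell by 0.99 ± 0.29 log2 units. AT2G21045, of the rhodanese superfamily like SEN1, rose by 1.69 ± 0.33 log2 units, from 20.8 ± 11.2 to 66.9 ± 11.5 CPM. ASN2, an asparagine synthetase gene like DIN6, fell by 0.73 ± 0.18 log2 units and AT1G56220, of the dormancy and auxin associated family, fell by 0.82 ± 0.11 log2 units, and neither was called with spike-in scaling, while ASN3 rose by 0.69 ± 0.19 log2 units. The calls of BGLU28 and RS2 were lost with spike-in scaling, and those of BGLU28, RS2 and ASN3 were each lost in at least 3 of the 6 fits without 1 library. AT4G27700, of the rhodanese superfamily and with the highest mean CPM of the relatives, fell by 0.23 ± 0.08 log2 units, a call that was lost with spike-in scaling, upper-quartile factors, no filter and the replicate block, and in each fit without 1 library except that without air replicate 3. PMI1, the other phosphomannose isomerase gene, had a log2 fold change of 0.27 ± 0.10 and was not called, but was called higher with spike-in scaling, with upper-quartile factors, with a filter at a mean of 5 CPM and without ethylene replicate 3.

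**Figure D5:**
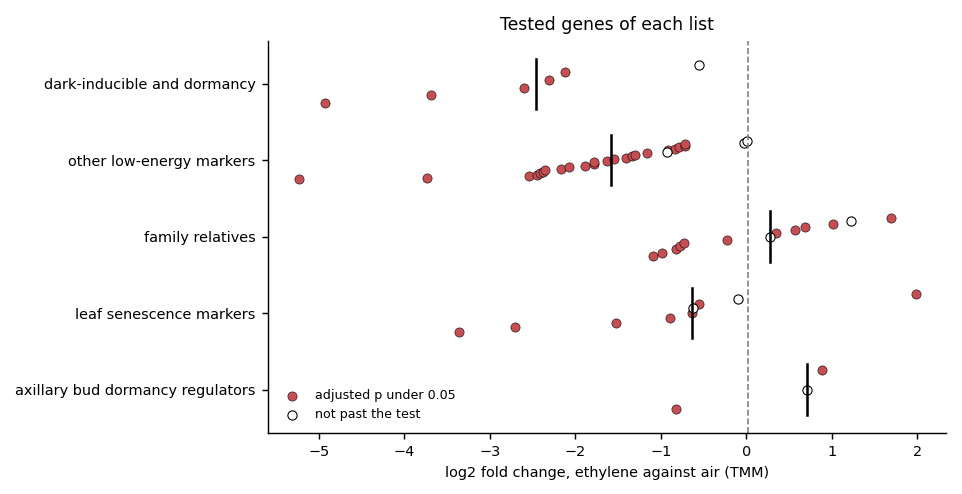
Log2 fold change of ethylene against air for each tested gene of 5 lists, with filled points at an adjusted p under 0.05 (edgeR with Benjamini-Hochberg adjustment) and open points otherwise. Vertical bars give each list's median, the dashed line the median of all loci, and the height of a point within its row only separates points. The dark-inducible and dormancy genes have a median of -2.46 and the other low-energy markers of -1.59, while the family relatives spread to both sides of 0.

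SEN1 is also used as a marker of leaf ageing, and 12 other senescence markers were counted beside it. Of the 9 tested, 6 fell and 1 rose, with a median log2 fold change of -0.64, and 4 were lower with spike-in scaling. NYC1, a chlorophyll b reductase gene, fell by 2.71 ± 0.19 log2 units, and the transcription factor genes NAP, ORE1 and WRKY6 had log2 fold changes of -3.36 ± 0.41, -1.52 ± 0.21 and -0.89 ± 0.10. PAO, which opens the chlorophyll ring and had the highest mean CPM of the list, fell by 0.55 ± 0.11 log2 units, and SAG101 fell by 0.64 ± 0.16 log2 units, and the calls of both were lost with spike-in scaling. SAG29, a sugar carrier gene of the SWEET family, rose by 1.98 ± 0.18 log2 units. SAG12, a cysteine protease gene found late in leaf senescence, had 0 counts in all 6 libraries.

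Regulators of bud dormancy, the process for which the DRM genes are named, had too few counts for most to be tested. Of 10 genes, 3 were tested, with 1 lower, 1 higher and 1 not called, where 16.8% of all loci tested were lower and 15.8% higher. MAX2, the F-box gene of strigolactone and karrikin signalling, fell by 0.83 ± 0.09 log2 units, a call lost on the spike-in scale. NCED3, of abscisic acid synthesis, rose by 0.88 ± 0.27 log2 units, a call lost in each fit without 1 library except that without ethylene replicate 1. BRC1, the transcription factor gene that holds axillary buds at rest, had 0 counts in every library.

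Markers of leaf, root and seed were counted beside these genes. The 5 leaf markers had a summed level of 39779 to 42946 CPM in air and 27203 to 28704 CPM after ethylene, and none was at 0. CAB1 and PSAF, 2 of 5, were called lower, where 16.8% of all loci tested were. With spike-in scaling 1 of 5 was called lower, PSAF, where 4.63% of all loci were. CAB1, which makes up most of the sum, was not called lower on that scale. The 6 root markers summed to 4756 to 6432 CPM in air and 5474 to 6673 CPM after ethylene, ranges that overlapped, and again none was at 0. Most of that sum is PYK10, at 5699.9 ± 881 CPM in air and 5791 ± 519 CPM after ethylene. IRT1 and CASP2, 2 of 6, were called higher on the TMM scale, where 15.8% of all loci tested were. With spike-in scaling 6 of 6 were called higher, where 40.0% of all loci were. IRT1 went from 91.6 ± 55.2 to 245 ± 88.4 CPM, CASP1 from 35.8 ± 15.9 to 60.4 ± 4.88 CPM, CASP2 from 8.18 ± 2.80 to 14.7 ± 1.97 CPM and COBL9 from 7.33 ± 3.05 to 12.6 ± 2.89 CPM (SD, n = 3). Without air replicate 1 or without ethylene replicate 1, 0 of the 6 root markers were called. Of 5 seed storage markers, 4 had 0 counts in all libraries and the remaining one had a level of 0.0554 CPM in 1 ethylene library. The part of organ makeup in the lower levels of DIN2, DIN6, DIN9, DIN10 and DRM2 was not tested.

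The loci most like the 6 tested genes were named by the root mean square difference of their centred log2 CPM from the genes' mean profile over the 6 libraries, among loci at a mean of at least 5 CPM. TPS11 was nearest with a difference of 0.136, followed by AT4G34950 with 0.145 and AT2G28120 with 0.163, both annotated in the major facilitator superfamily. KCS12, a 3-ketoacyl-CoA synthase gene, and BCE2, also named DIN3 and encoding a subunit of the branched-chain keto acid dehydrogenase, followed with 0.163 and 0.166. HEMA1, a glutamyl-tRNA reductase gene, and FER1, a ferritin gene, both stood at 0.176, and XTH33, a xyloglucan endotransglucosylase gene, at 0.181. All 8 loci were higher in air, since the profile they were matched to was. HEMA1 went from 930 ± 140 to 171 ± 12.7 CPM (SD, n = 3).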

How the data were processed

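RNA from 6 samples, 3 pretreated in air and 3 with ethylene, was sequenced after messenger RNA enrichment, per the labels' protocols. Per sample, the authors deposited a table of raw read counts by transcript. They also deposited a comparison of the groups, which, per the file headers, holds log2 fold changes with raw and adjusted p-values. Aligner, counter, build and use of strand are not given in the sources used here. In the authors' list of significant transcripts, 6 per-sample columns were not used. The signal in the authors' comparison table is the deposited counts divided by 1 factor per library and was used only to match columns to libraries, and the columns named there for air replicates 1 and 3 hold each other's counts.

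Counts were summed to 32833 loci, and 92 spike-ins were kept out. Total counts, spike-ins included, ran from 13163499 to 17462603 per library. Without spike-ins and before TMM factors, 1 count was worth 0.0584 to 0.0777 CPM. The CPM values given here were instead scaled by effective library sizes after TMM factors, which ran from 12206145 to 18042548. No pair of libraries within a group agreed within sampling noise (chi-square per degree of freedom 5.01 to 26.6). edgeR 4.0.16 (R 4.3.3) was run with TMM factors, filterByExpr (minimum count 10, minimum total 15), group alone as design and Benjamini-Hochberg adjustment. Calls were made at an adjusted p under 0.05, and SE was derived from the log2 fold change and the F statistic of the test. DESeq2 1.42.0, other factors, other filters, the most abundant isoform alone, a replicate block and left-out libraries were alternatives. The model code was tested on simulated data. Of 53403 nuclear transcript identifiers, 99.66% are in the RefSeq TAIR10.1 annotation. The genes and lists were chosen with earlier results of these data known. All 8 genes are named, with up to 6 called genes of each other list by p, its most abundant gene, and the 8 loci nearest in profile, except for 1 gene that is not reported here. The most abundant gene is by mean CPM, which is not a rank of true level since isoforms were counted unevenly. SAG101, BCAT-2, BGLU28, RS2, ASN3, CAB1, PSAF, PYK10, IRT1, CASP1, CASP2, COBL9, SAG12, BRC1, PMI1, GDH1, EXL2, D2HGDH, ProDH1 and MIOX4 were named after their values were seen.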

Additional observations from a re-analysis of the deposited data

How the results depend on the processing

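Under the alternatives, 186 recomputed values were labelled unchanged, 3 moved and 1 weaker. Unchanged meant the same direction and side of the threshold, or within 1.5 times for counts. For SEN1 and DRM1 it meant only that the pooled ratio kept its direction and moved by less than its error. That error was 2.54 log2 units for SEN1 and 0.595 for DRM1, and their calls did change between settings. A filter at a mean of 5 CPM left 3 of the 8 genes called lower (DIN2, DIN10 and DRM2), because DIN6, DIN9 and DIN11 were no longer tested, and 3 transcripts called in place of 5. With spike-in scaling 2 of the other low-energy markers, GDH1 and EXL2, were called higher in place of 0, where 40.0% of all loci were. With DESeq2 or no filter SEN1 joined the genes called lower, making 6. The same 5 genes were called with RLE factors, upper-quartile factors and spike-in scaling, and DIN6 was not tested when only the most abundant isoform was kept.

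Leaving out 1 library at a time gave log2 fold changes from -5.17 to -4.72 for DIN2, -4.95 to -3.11 for DIN6, -2.53 to -1.67 for DIN9, -2.58 to -2.07 for DIN10, -0.82 to -0.25 for DIN11 and -2.72 to -2.44 for DRM2. The pooled ratios ran from -4.01 to -3.22 for SEN1, with none to give without ethylene replicate 1, where no ethylene count remained, and from -1.85 to -1.25 for DRM1. The DIN9 call was lost without air replicate 1 (log2 fold change -1.88). Of the 8 genes 5 to 6 were called lower and 0 higher, of the other low-energy markers 23 to 24 were lower and 0 higher, 5 to 7 transcripts were called, and 4361 to 5903 loci in all.

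With the replicate number as a block, 5574 loci were called and the same 5 genes fell, with log2 fold changes of -4.90 for DIN2, -3.69 for DIN6, -2.12 for DIN9, -2.34 for DIN10 and -2.60 for DRM2. Deviations of same-numbered libraries correlated at 0.02, -0.06 and 0.12, and those of differently numbered libraries at -0.13 to 0.12. With 3 libraries per group these values cannot show whether same-numbered libraries shared more than a number. Low counts limit SEN1, DRM1, DIN6, DIN9 and DIN11, each with at most 100 counts over the 6 libraries, and whether depth or reads shared between isoforms set these counts was not tested.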

Other observations

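AT4G34950 and AT2G28120, the loci of the major facilitator superfamily near in profile, had log2 fold changes of -2.35 ± 0.18 and -2.66 ± 0.20 (SE), and AT2G28120 went from 53.4 ± 14.4 to 8.43 ± 1.28 CPM (SD, n = 3). BCAT-2, a branched-chain amino acid aminotransferase gene of the low-energy list, fell by 5.23 ± 0.42, from 10.7 ± 2.91 to 0.275 ± 0.197 CPM, a larger log2 change than that of DIN2, and was singled out after its values were seen. The difference between the genes was not tested.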
